A study of Mus musculus with 14 samples.

Results

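Luminal cells line the glands of the prostate and make its secretions, and Trop2 is a surface glycoprotein that marks luminal cells with progenitor activity. The Trop2-negative luminal cells described here were sorted from the prostates of C57BL/6 mice at 24 months (old) and at 3 months (young), with 2 libraries at each age. They are 4 of the 14 libraries of the series, chosen by their titles, and the other sorts are Trop2-positive luminal cells (2 libraries at each age) and stromal cells. The labels call the luminal libraries biological duplicates. They do not say how many animals went into each, which surface markers besides Trop2 defined the sort, or the hour of collection. A p-value therefore measures the spread between these libraries.

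Messenger RNA was sequenced, and the deposited tables list 24054 genes. Expected counts summed to 6667066 and 6099438 in young libraries 1 and 2 and to 7155359 and 6311944 in old libraries 1 and 2. CPM are counts scaled to the size of the library, and a floor of 3 counts came to between 0.419 and 0.492 CPM. Levels below are CPM after TMM normalisation, given as mean ± SD with n = 2 unless each library is listed. Log2 fold changes are old minus young with their standard error. Adjusted p-values are from edgeR's quasi-likelihood test over all 13598 genes tested, and a gene is said to rise or fall when its adjusted p is under 0.05.

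Markers of the sort were checked first. Summed over 15 genes, markers of Trop2-positive luminal cells were at 2892 and 2756 CPM of the library total in the young and at 2699 and 3033 in the old Trop2-negative libraries, against 10000 to 12220 in the 4 Trop2-positive libraries. Clu (1458 to 1716) and Krt19 (420.0 to 838.6) made up most of this sum in the Trop2-negative libraries. Psca, 1 of the 15 markers, reached at most 1.9 against at least 334.0. The basal markers Krt5, Krt14 and Trp63 reached at most 2.5 CPM of the total, and 12 luminal markers summed to between 13290 and 16750. Another basal marker, Krt15, was at 6.15 and 9.51 in the young and 19.0 and 36.8 in the old libraries. It was not called by edgeR (adjusted p = 0.0866), and stood at 677.9 to 870.5 in the Trop2-positive libraries. The whole list of 9 basal markers summed to between 839.2 and 1200 against 1866 to 2204 in the Trop2-positive libraries. Most of the sum in the Trop2-negative libraries was Dst (652.5 to 907.5). Summed fibroblast markers were at 198.9 and 88.1 (same scale) in the young and 52.2 and 33.9 in the old libraries, and summed neuroendocrine markers at 17.2 and 11.6 against 4.13 and 2.65. Svs1, a seminal vesicle gene, was above 100 CPM of the total in young library 2, old library 1 and 1 old Trop2-positive library.

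Several pathways frame the results. NRF2 (Nfe2l2) is a transcription factor held in check by KEAP1. When oxidants or electrophiles modify KEAP1, NRF2 binds antioxidant response elements and raises genes of glutathione and thioredoxin metabolism, quinone reduction and conjugate export. The endoplasmic reticulum (ER) folds secreted proteins with chaperones such as BiP (Hspa5) and with disulphide isomerases, and the unfolded protein response adjusts their genes through ATF6, XBP1 and PERK (Eif2ak3), partly at a promoter element called the ER stress response element. Secretory luminal cells carry a heavy load of such proteins.

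The promoters of the ER genes that fell are shown first, because many hold that element. In the RefSeq promoter table (GRCm38.p6) the 250 bases before each annotated start were searched on both strands for CCAAT, then any 9 bases, then CCACG, which reads CGTGG, any 9 bases, ATTGG on the other strand. A gene can have several annotated starts, some of them inside the gene. It was counted when any of its starts had a match, so genes with more starts had more chances. Only 0.113% of 32851 promoters held a match. Of the 10770 tested genes with a promoter in the table, 18 held one. Among ER chaperones and disulphide isomerases it was 8 of 23 genes with a promoter, and 5 of the 8 that fell. In the lines below the matched element is in capitals, each sequence runs 5′ to 3′ along the gene's strand, and the spans are in GRCm38.p6.
Hspa5 (chr2:34772020-34772048, plus strand): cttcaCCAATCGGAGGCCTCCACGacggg
Hsp90b1 (chr10:86705633-86705661, minus strand): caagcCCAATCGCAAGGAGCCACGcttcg
Hsp90b1, a second match (chr10:86705528-86705556, minus strand): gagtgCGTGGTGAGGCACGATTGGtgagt
Calr (chr8:84847070-84847098, minus strand): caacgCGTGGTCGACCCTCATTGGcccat
Pdia6 (chr12:17266486-17266514, plus strand): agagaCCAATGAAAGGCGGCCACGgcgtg
Dnajc3 (chr14:118937822-118937850, plus strand): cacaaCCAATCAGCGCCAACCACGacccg
Derl3 (chr10:75893237-75893265, plus strand): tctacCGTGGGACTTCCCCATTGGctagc

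The Calr match is also shown in its context, from 250 to 11 bases before the start (chr8:84846942-84847181, minus strand): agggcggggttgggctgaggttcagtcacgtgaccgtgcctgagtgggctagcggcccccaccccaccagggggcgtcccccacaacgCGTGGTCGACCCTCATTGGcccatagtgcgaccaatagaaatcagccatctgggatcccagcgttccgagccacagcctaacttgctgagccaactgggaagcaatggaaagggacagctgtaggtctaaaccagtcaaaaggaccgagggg. The 6 genes with a sequence shown above were called lower. Over all 18 tested genes with a match, 6 were called lower and 0 higher, 13 had a negative log2 change, and the median log2 change was -0.54. Of these 18, 8 are ER chaperones or disulphide isomerases and 2 are genes of ER-associated degradation. All 6 calls are among them, so these counts largely restate the ER lists described below.

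For the NRF2 targets a much commoner element was searched, and most of those that rose did not hold it. The letters TGACNNNGC or GCNNNGTCA, a short core of the antioxidant response element, occurred in 10.2% of all promoters and in 13.97% of those of tested genes. It was found in 7 of 28 NRF2 targets with a promoter in the table and in 3 of the 11 of these that rose, and also in 5 of 14 genes of ER-associated degradation and 7 of 20 of ER import. Matches are printed for 2 of these genes and for the glutathione transferase gene Gsta3, which also rose, because they show the core in either orientation, again with the match in capitals.
Txnrd1 (chr10:82859104-82859132, plus strand): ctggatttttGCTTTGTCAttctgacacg
G6pdx (chrX:74428919-74428947, minus strand): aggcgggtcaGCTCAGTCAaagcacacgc
Gsta3 (chr1:21240454-21240482, plus strand): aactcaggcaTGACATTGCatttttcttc

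No match was found in the 250 bases of Nqo1 and Gstp1, which says only that these letters are not in that window. All matches are descriptions of sequence and no binding was measured here.

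Of the 13598 genes tested, 279 (2.05%) were called with age in Trop2-negative cells, 145 higher (1.07%) and 134 lower (0.985%) at 24 months. More than 2-fold changes made up 173 of them, 93 higher and 80 lower. In all 279 the libraries of the 2 ages did not overlap. In these bulk libraries, fewer cells of a type and less RNA per cell cannot be told apart. In the Trop2-positive sort the same fit called 22 genes (0.162%), 13 higher (0.0956%) and 9 lower (0.0662%). The count for Trop2-negative cells rests on all 4 libraries: it was 49 without young library 1, 46 without young library 2, 61 without old library 1, 331 without old library 2 and 44 without the 3 libraries high in Svs1. Of the calls made on log2(TPM + 1), 92.7% were increases, against 52.0% here. That scale moved the median gene up by 0.357, so values on it are given below relative to the median gene unless called uncentred.

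**Figure D1:**
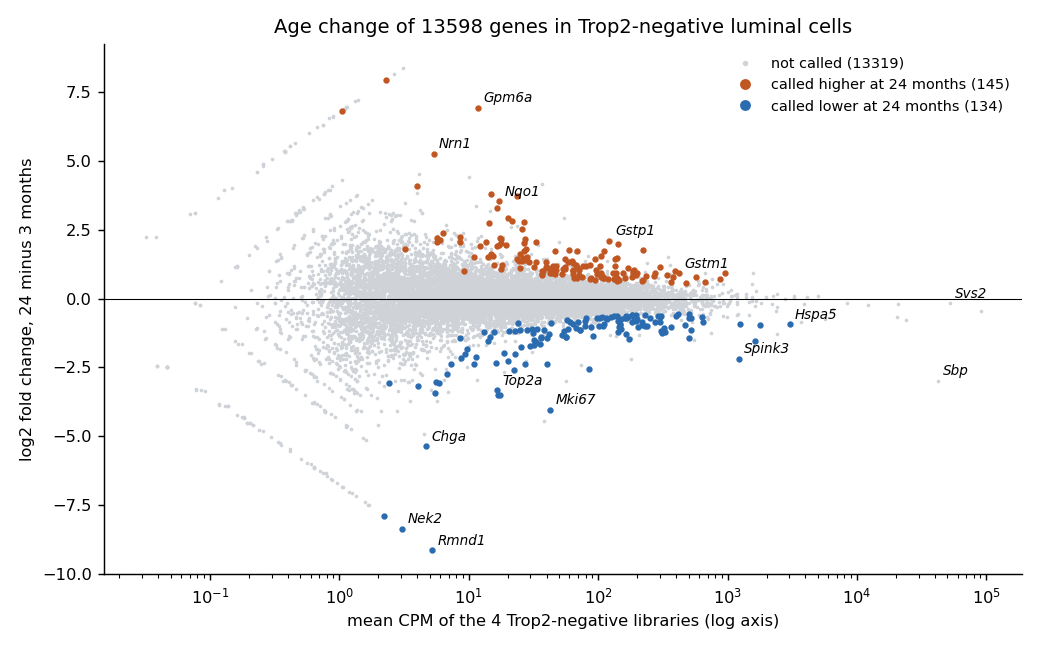
Log2 fold change (24 minus 3 months, y axis) of 13598 genes against their mean CPM in the 4 Trop2-negative libraries (x axis, log scale). Orange points are the 145 genes called higher, blue points the 134 called lower, and grey points the rest; Rmnd1 and Nek2 had no counts at 24 months, so their plotted folds depend on the fit.

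In old Trop2-negative cells NRF2 targets were called in 1 direction, with 13 of 33 tested members called higher and 0 lower (2.05% of all genes were called, 1.07% higher). The median log2 change was 0.71 against 0.03 over all genes tested, and 27 of 33 members had both old libraries above both young ones, where 25.7% of all genes did. Nqo1, the quinone reductase gene (chromosome 8, 107388225 to 107403206, minus strand, GRCm38), stood at 2.81 and 2.59 CPM in the young libraries and at 32.8 and 30.1 in the old ones. Both old libraries were far above both young ones. The fold was 11.6 (log2 3.53 ± 0.48, adjusted p = 0.0032). This call was lost without the 3 libraries high in Svs1, which leaves fewer samples, at a similar log2 change of 3.40 (adjusted p = 0.234).

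The other called members are given by their roles. For glutathione synthesis, Gclc, the catalytic subunit of the rate-limiting ligase, was at 105 and 107 CPM in the young and 202 and 205 in the old libraries (1.91-fold, adjusted p = 0.0109). Its regulatory partner Gclm, at 70.9 ± 9.03 and 108 ± 10.2 CPM, did not pass the test (adjusted p = 0.115). For thioredoxin metabolism, Txnrd1, thioredoxin reductase, rose 1.78-fold from 194 ± 13.2 to 346 ± 42.6 CPM, and Srxn1, which repairs peroxiredoxins, rose 1.77-fold. The peroxidase gene Gpx2 went from 3.44 and 3.14 CPM to 9.64 and 18.2, so its old libraries differed from each other but stayed above the young ones (4.20-fold, adjusted p = 0.0325).

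For NADPH supply, G6pdx, the entry enzyme of the pentose phosphate pathway, rose 1.66-fold and the malic enzyme gene Me1 rose 2.01-fold, from 25.3 and 23.7 CPM to 48.5 and 49.8. Among detoxifying enzymes, the carbonyl reductase gene Cbr1 rose 2.27-fold (63.5 ± 3.49 to 144 ± 12.2 CPM), the epoxide hydrolase gene Ephx1 from 117 and 105 to 178 and 179 CPM and the aldehyde oxidase gene Aox1 4.16-fold (12.9 ± 0.979 to 53.7 ± 3.79 CPM). The exporter genes moved the same way. Abcc4 stood at 62.8 and 53.4 CPM in the young and 228 and 230 in the old libraries (3.93-fold, adjusted p = 0.00283), and Abcc1 rose 2.05-fold.

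The list also holds genes of iron storage and heme breakdown. Ftl1, the ferritin light chain gene, rose from 663 ± 22.7 to 1087 ± 106 CPM (adjusted p = 0.0163), but 50.9% of its 50-base windows also occur in other transcripts, so its own share of the reads is uncertain. Fth1, the heavy chain gene, was at 677 ± 33.2 and 988 ± 20.4 CPM and missed the threshold (adjusted p = 0.0565). Hmox1, heme oxygenase, was at 54.0 and 31.1 CPM in the young and 133 and 117 in the old libraries, without overlap, and also missed it (adjusted p = 0.0788). Sqstm1, an autophagy receptor gene, was at 617 ± 52.0 and 745 ± 125 CPM (adjusted p = 0.443).

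The regulators were tested on their own. Nfe2l2 itself rose from 73.1 and 64.5 CPM to 137 and 117 (1.84-fold, adjusted p = 0.0121). Keap1 was level, at 39.4 and 35.9 CPM in the young and 38.4 and 38.2 in the old libraries (log2 0.03 ± 0.20). Of 8 regulators tested, Nfe2l2 was the 1 called, where 2.05% of all genes were called.

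Glutathione transferases, which attach glutathione to electrophiles, gave 4 called higher and 0 lower of 19 tested, with a median log2 change of 0.29. Over all genes tested, 1.07% were called higher. Gstp1 (chromosome 19, 4035407 to 4037985, minus strand) was at 48.1 and 44.4 CPM in the young and 196 and 201 in the old libraries. The libraries of each age lay close together, and the ages differed 4.29-fold (log2 2.1 ± 0.18, adjusted p = 0.000251). Gstp1 shares 33.7% of its 50-base windows with other transcripts, chiefly Gstp2. The sum of both genes, as CPM of the library total, went from 44.0 to 211.2. Gsta4 rose 2.57-fold, Gsta3 2.33-fold and Gstm1 1.89-fold (314 and 266 CPM to 526 and 569). Gstm2, at 167 ± 9.90 and 204 ± 2.49 CPM, did not pass the test (adjusted p = 0.352).

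How firmly the NRF2 targets were called depended on the libraries. Of the 13, 6 stayed called without old library 1 and 6 without old library 2, but only 2 without young library 1, 2 without young library 2 and 1 without the 3 libraries high in Svs1; the last was Abcc4. The median log2 change of the list lay between 0.65 and 0.81 in these fits. Relative to the median gene, the TPM scale gave 0.70. Gstp1 and Abcc4 were called under all 21 alternatives.

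**Figure D2:**
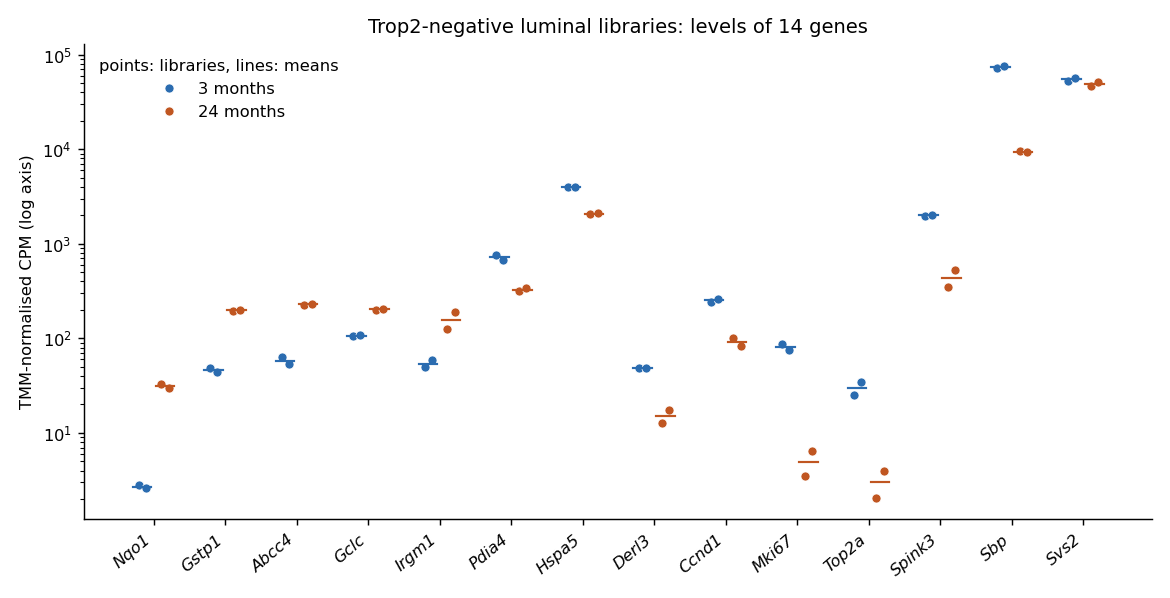
Levels of 14 genes in each Trop2-negative library (y axis, TMM-normalised CPM, log scale), blue for 3 months and orange for 24 months, with lines at the means. The 2 libraries of an age do not overlap those of the other age for any of the 14 genes; they lie closest in Svs2, where the young range (52460 to 57430) lies just above the old (47130 to 51230) and the test was not passed (adjusted p = 0.848).

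Of 27 ER chaperones and disulphide isomerases, all tested, 10 were called lower and 0 higher, and the median log2 change was -0.66. Over all genes tested, 0.985% were called lower. Both old libraries lay below both young ones in 24 of 27, against 22.3% of all genes. The summed level of the 27 was 15650 and 15360 CPM in the young and 8533 and 9161 in the old libraries.

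Among the heat shock family chaperones is Hspa5 (BiP; chromosome 2, 34771970 to 34777547, plus strand). It was at 3954 and 3970 CPM in the young and 2054 and 2109 in the old libraries (1.90-fold lower, adjusted p = 0.0116). Hsp90b1 (GRP94) fell from 2342 ± 264 to 1209 ± 42.6 CPM and Hyou1 from 642 ± 24.3 to 397 ± 29.6. The co-chaperone gene Dnajc3, also an inhibitor of PERK, fell 2.04-fold, from 512 and 472 CPM to 221 and 262. Calr, the lectin chaperone calreticulin, fell 1.92-fold, from 1610 and 1656 CPM to 791.8 and 913.3.

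Disulphide isomerases followed the same direction. Pdia4 (chromosome 6, 47796141 to 47813430, minus strand) was at 755 and 682 CPM in the young and 314 and 341 in the old libraries. Both old libraries lay far below both young ones, and the fall was 2.19-fold (log2 -1.13 ± 0.16, adjusted p = 0.00379). Pdia6 fell 1.93-fold and Pdia3 1.58-fold. P4hb, another isomerase gene, was uncalled, at 1371 and 1523 CPM against 915.2 and 1049 (adjusted p = 0.0537). The secreted or luminal factors Manf and Sdf2l1 fell 1.97-fold and 2.19-fold, Sdf2l1 from 103 and 97.4 CPM to 38.4 and 52.9.

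The neighbouring steps of the secretory pathway gave fewer calls in the same direction. In ER-associated degradation, which returns misfolded proteins to the cytosol, 2 of 15 were called lower: Derl3, a component of the retrotranslocation channel, from 48.4 and 48.8 CPM to 12.7 and 17.3 (3.24-fold), and Edem1, a mannosidase-like lectin (1.65-fold). In ER import and N-glycosylation 1 of 27 was called lower, the signal peptidase subunit Sec11c (1.69-fold), with a list median of -0.31 that turned to 0.07 on the uncentred TPM scale. In transport between ER and Golgi 2 of 25 were called lower (median -0.39). Outside the ER, 0 of 38 ribosomal proteins, 0 of 28 proteasome subunits, 0 of 34 oxidative phosphorylation genes and 0 of 20 aminoacyl-tRNA synthetases were called by edgeR in either direction (2.05% of all genes were called, and 2035 of 13598 had an unadjusted p under 0.05, so 0 in lists of this size is near the background), with medians of -0.15, -0.06, 0.02 and -0.03.

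Of 12 sensors and transcription factors of the unfolded protein response, 2 were called lower and 0 higher, where 0.985% of all genes were called lower and 1.07% higher. Eif2ak3 (PERK) fell 1.56-fold, from 199 and 198 CPM to 133 and 123, and Mbtps1, the protease that activates ATF6, fell 1.51-fold. Eif2ak3 was called under 9 of 21 alternatives and lost its call when any 1 of the 4 Trop2-negative libraries was left out (log2 -0.70 to -0.61). Mbtps1 was called under 10 of 21 and, of these 4 fits, kept its call only in that without old library 2 (log2 -0.79 to -0.46). Xbp1 was at 333 and 322 CPM in the young and 271 and 312 in the old libraries (log2 -0.17 ± 0.13, adjusted p = 0.617), and its change was positive on the uncentred TPM scale. Atf4, the effector of PERK, was at 484 ± 6.39 and 604 ± 49.9 CPM (adjusted p = 0.261). Of 21 ATF4 targets, Cebpb rose 2.18-fold and Nupr1, a stress-induced chromatin protein gene, fell 2.39-fold (407 and 466 CPM to 166 and 200).

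Of the 10 ER chaperone calls, 9 stayed without old library 2, but 2 without old library 1, 1 without young library 1, 2 without young library 2 and 2 without the 3 libraries high in Svs1. The list median lay between -0.74 and -0.55 in these fits. Relative to the median gene it was -0.64 on the TPM scale, where 3 members were called lower. Pdia4 was called under 19 of 21 alternatives.

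**Figure D3:**
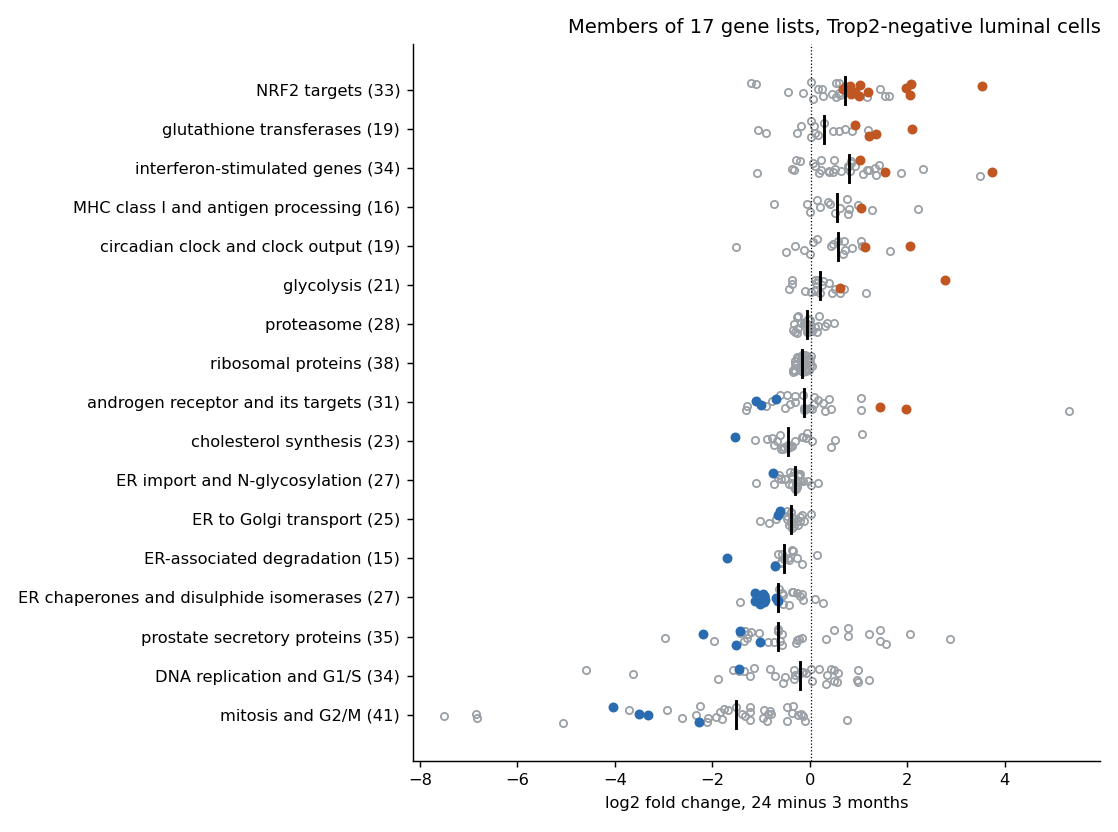
Log2 fold change (24 minus 3 months, x axis) of the tested members of 17 gene lists, with the number tested in brackets. Filled points were called higher (orange) or lower (blue), open points were not called, black bars are list medians and the dotted line is the median of all genes (0.03); NRF2 targets lie mostly right of it, ER chaperones and mitosis genes left.

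Of 41 mitosis and G2/M genes tested, 4 were called lower and 0 higher, and 40 had a negative log2 change, with a median of -1.51. Over all 13598 genes tested, 0.985% were called lower and 6447 had a negative log2 change. Mki67 (Ki-67; chromosome 7, 135689784 to 135716361, minus strand) was at 86.8 and 74.5 CPM in the young and 3.47 and 6.44 in the old libraries (16.4-fold lower, log2 -4.04 ± 0.44, adjusted p = 0.00209). Top2a, the mitotic topoisomerase gene, went from 25.3 and 34.6 CPM to 2.06 and 3.99 (9.96-fold). Cenpf, a kinetochore gene, went from 35.4 and 28.5 CPM to 1.54 and 4.14 (11.4-fold), and Stmn1, a microtubule destabiliser, fell 4.82-fold. In all 4 genes both old libraries lay well below both young ones, but none of the 279 called genes overlapped between ages.

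The other 37 members were not called. H2afz and Hmgb2, a histone variant gene and a chromatin protein gene, were at 62.4 ± 4.30 and 52.7 ± 10.4 CPM and at 72.7 ± 5.66 and 67.7 ± 2.45 CPM, and overlapped between ages. Ccnb1 and Cdk1, the cyclin and kinase of mitotic entry, had 23 and 17 counts and 19 and 7 counts in the young libraries and 0 in both old ones, at least 6.97-fold and 4.47-fold lower against a floor of 3 counts per library. Neither passed the test (adjusted p = 0.105 and 0.117). Nek2, a centrosome kinase gene outside the list, had 53 and 21 counts in the young and 0 in the old libraries, at least 12.7-fold lower (adjusted p = 0.0185). The call of Nek2 was lost without old library 1, young library 1 or young library 2, while Mki67 was called under all 21 alternatives. Of the 41 mitosis genes, 1 was called without the 3 libraries high in Svs1 and 3 to 5 with 1 Trop2-negative library left out, with medians between -2.04 and -1.26.

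Replication and G1/S genes did not move together. Of 34, 1 was called lower, with a median of -0.19 that turned positive (0.13) on the uncentred TPM scale. The called gene was Ccnd1 (cyclin D1), at 241 and 263 CPM in the young and 101 and 83.4 in the old libraries (2.73-fold lower, adjusted p = 0.00379). Ccnd2 (cyclin D2), outside the list, rose from 2.97 and 2.96 CPM to 16.2 and 11.96 (4.74-fold, adjusted p = 0.00492). By edgeR, 0 of 14 cell cycle inhibitors and 0 of 20 p53 targets were called. With 2.05% of all genes called, 0 in lists of this size is near the background.

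Secretory transcripts take a large share of these libraries. Sbp, encoding a spermine-binding protein of the ventral prostate, held 163400 and 159300 uncentred TPM in the young libraries and 28600 and 24930 in the old ones. In TMM-normalised CPM it went from 72150 and 76780 to 9509 and 9432, a 7.86-fold lower level that did not pass the test (log2 -2.98 ± 0.69, adjusted p = 0.121). The libraries of an age lay close together and the ages far apart. The test takes the spread from all luminal groups. Svs2, a seminal vesicle gene also transcribed here, was at 58850 and 59040 uncentred TPM in the young and 70230 and 67070 in the old libraries. In TMM-normalised CPM its direction was the opposite, from 52460 and 57430 to 47130 and 51230. That change did not pass the edgeR test (log2 -0.16 ± 0.25, adjusted p = 0.848). The 20 most abundant genes held 48.0% and 51.4% of all TPM in the young and 36.1% and 38.3% in the old libraries.

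Of 35 prostate secretory protein genes tested, 4 were called lower and 0 higher (median -0.65). Over all genes tested, 0.985% were called lower and 1.07% higher. Spink3, a secreted protease inhibitor gene, went from 1977 and 2018 CPM to 351 and 528 (4.54-fold). The other 3 were Fam115e (606.4 and 855.3 CPM to 242 and 298, 2.71-fold), 5430419D17Rik (2.88-fold) and Gm5615 (2.05-fold). Pbsn (probasin), an androgen-regulated secretory gene, was at 3092 and 3739 CPM against 848.5 and 1932, without overlap but uncalled (adjusted p = 0.243). Genes known mainly from 1 lobe had negative medians too, but the ventral list is not separate from the secretory list. The ventral median of -1.53 is the value of 5430419D17Rik, 1 of the 4 secretory calls. Sbp of the secretory list is also on the ventral list. It held most of the ventral sum, at 72150 and 76780 CPM in the young and 9509 and 9432 in the old libraries. Genes of the ventral lobe summed to 77600 and 82190 CPM in the young and 10740 and 11690 in the old libraries (5 tested, 2 called lower, median -1.53). Those of the anterior lobe summed to 12210 and 15290 against 7072 and 10120 (5 tested, 0 called by edgeR, median -0.74). Those of the dorsal and lateral lobes summed to 4291 and 5252 against 1506 and 3060 (8 tested, 1 called lower, median -0.72). The part of lobe composition in the secretory result was not tested. Without the 3 libraries high in Svs1, 0 members were called lower and 2 higher. Of the 4 calls, 1 stayed without old library 1, 2 without old library 2, 3 without young library 1 and 2 without young library 2.

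Androgen receptor targets did not share a direction, with 2 of 31 called higher and 3 lower (1.07% and 0.985% of all genes). Ndrg1 rose 2.70-fold (89.3 and 56.4 CPM to 214 and 180) and Abcc4, described above, is also on this list. Hoxb13, a transcription factor of prostate identity, fell 2.01-fold, the transporter gene Slc45a3 2.15-fold and the elongation factor gene Ell2 1.62-fold. None of the 3 decreases was called on the TPM scale or without old library 1.

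Interferon-stimulated genes had a median log2 change of 0.80, with 3 of 34 called higher and 0 lower and 29 positive. Over all 13598 genes tested, 1.07% were called higher and 7125 had a positive log2 change. Irgm1, an immunity-related GTPase gene (chromosome 11, 48861968 to 48871683, minus strand), was at 49.5 and 58.8 CPM in the young and 124 and 192 in the old libraries (2.92-fold, adjusted p = 0.0032). Iigp1, of the same family, went from 2.03 and 4.62 CPM to 27.0 and 60.6 (13.3-fold). The old libraries differed from each other in both genes but stayed above the young ones. Ddx58 (RIG-I), a sensor of viral RNA, rose 2.04-fold, a call lost with other scaling factors. Irf9 and Ifi27, at 63.2 ± 0.254 and 88.2 ± 6.24 and at 17.5 ± 1.13 and 33.4 ± 0.499 CPM, did not pass the test. In the MHC class I list, 1 of 16 rose, H2-Q4 (2.08-fold), which shares 21.8% of its windows with other transcripts. Summed macrophage markers stayed between 2.66 and 4.80 CPM of the total in these 4 libraries, and markers of all leukocytes were at 91.8 and 93.2 in the young and 99.6 and 87.6 in the old libraries, overlapping between ages. Nearly all of the leukocyte sum was Cd52 (89.8 and 91.7 against 94.6 and 86.0). Ptprc (CD45) lay near the floor, at 0.60 and 0.33 in the young and 2.80 and 0.79 in the old libraries. Summed T cell markers were at 8.13 and 10.8 against 13.6 and 12.4, neutrophil markers at 13.5 and 21.98 against 37.1 and 22.39, and B and plasma cell markers at 0.15 and 0.99 against 3.49 and 1.58, higher in both old libraries for each. Most of the T cell sum was Cd3d, which overlapped between ages (7.23 and 9.19 against 10.5 and 7.38). Most of the neutrophil sum was Cxcr2, which overlapped in TMM-normalised CPM (11.7 and 20.3 against 27.8 and 18.6). The part of such cells in this result was not tested.

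The largest changes included genes outside these lists. Gpm6a, a neuronal membrane glycoprotein gene, had 0 and 2 counts in the young and 188 and 145 in the old libraries, a ratio of 158 (95% counting interval 43.4 to 1309). Nrn1, which encodes neuritin, had 1 and 2 counts against 98 and 54, a ratio of 48.0 (16.1 to 236). Further increases over 5-fold were in Nos2, the inducible nitric oxide synthase gene (0.468 and 0.370 CPM to 4.88 and 10.3), the phosphodiesterase gene Pde1c (2.81 and 1.11 to 30.7 and 24.5), Tmod1, Mapt, Sv2b, the phosphofructokinase gene Pfkp (6.401 and 7.209 to 55.6 and 36.8), Zfhx4 and the cation channel gene Trpv4. Tmod1 caps actin filaments, Mapt encodes tau and Sv2b a synaptic vesicle protein. The rule that picked these genes required both old libraries to lie above both young ones, so that pattern is no separate result.

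Among the decreases was Rmnd1, a gene of mitochondrial translation (chromosome 10, 4401915 to 4432388, minus strand), which had 72 and 52 counts in the young and 0 in both old libraries, at least 21.6-fold lower (adjusted p = 0.00127). Of its 50-base windows 20.2% also occur in other transcripts, chiefly Gm5512. The transcription factor genes Myb (7.96 and 12.2 CPM to 0.771 and 1.07) and Hoxa10 (7.96 and 12.9 to 0.514 and 1.99) and the receptor gene Epha4 (7.65 and 6.84 to 0.257 and 1.38) also fell, as did Efcab5.

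Chga, Col1a1 and Sparc were among these decreases. Chga, a granule protein gene of neuroendocrine cells, had 79 and 32 counts against 3 and 0, a ratio of 39.0 (13.01 to 192). Col1a1, a collagen gene of fibroblasts, fell from 42.8 and 19.0 CPM to 2.31 and 3.22, and Sparc, a matrix protein gene, from 15.3 and 8.503 to 2.44 and 1.07. All 6 tested fibroblast markers had a negative log2 change, with a median of -2.35, and the summed fibroblast and neuroendocrine markers given above were lower in the old libraries too. Their part in these decreases was not tested.

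The age changes were then set beside those of Trop2-positive cells, which come from other libraries. NRF2 targets had a median log2 change of 0.24 in Trop2-positive cells with 0 members called, ER chaperones -0.32 with 0 called, and mitosis genes -0.48 with 0 called. With 0.162% of all genes called in that sort, 0 in lists of this size is near the background. A call in 1 sort and not in the other does not show a difference, and the test of the difference itself called 7 of 13598 genes (0.0515%), 4 with a positive (0.0294%) and 3 with a negative difference (0.0221%), with 0 members of these 3 lists among them. For Nqo1 the change was 3.53 against 2.56 (difference 0.97, adjusted p = 0.850), for Gstp1 2.1 against 0.75 (difference 1.35, adjusted p = 0.0714), for Mki67 -4.04 against -0.80 (difference -3.24, adjusted p = 0.0821) and for Pdia4 -1.13 against -0.72 (difference -0.41, adjusted p = 0.769). Krt7 and Wfdc2, markers of the Trop2-positive sort, rose 2.29-fold and 4.33-fold in Trop2-negative cells, to 188 ± 42.2 and 9.70 ± 2.99 CPM. The 13 other markers of that list were not called. These 2 of 15 are 13.3%, where 1.07% of all genes were called higher. Both old libraries lay above both young ones in 5 of the 15 and below in 3, against 25.7% and 22.3% of all genes.

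**Figure D4:**
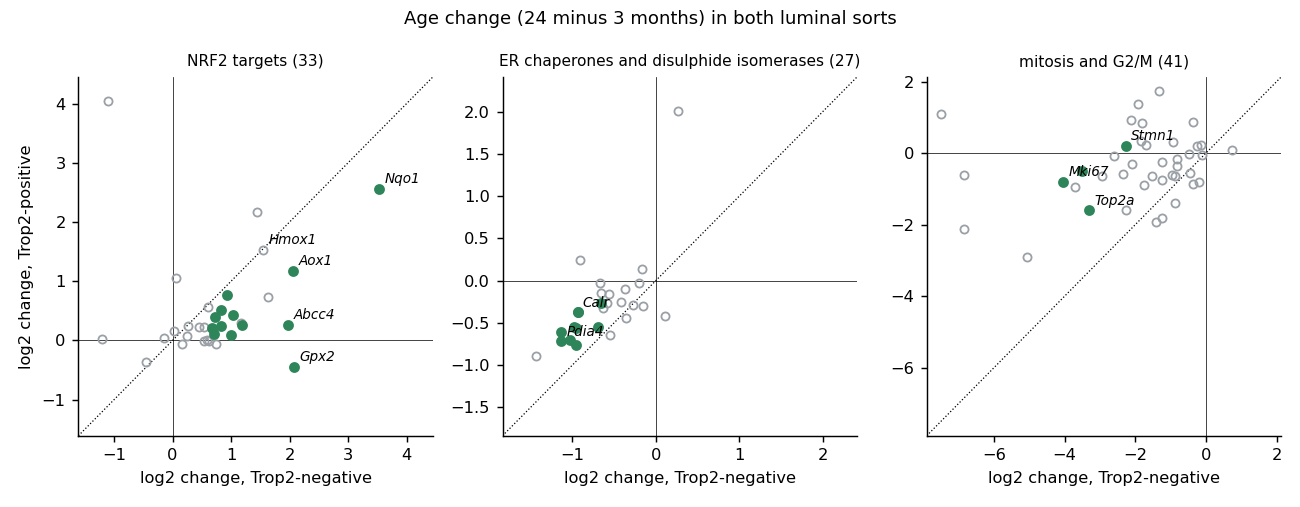
Log2 fold change (24 minus 3 months) in Trop2-negative (x axis) and Trop2-positive cells (y axis) for NRF2 targets, ER chaperones and mitosis genes; green points were called in Trop2-negative cells and the dotted line marks equal change. Nqo1 is high on both axes, Abcc4 and Gpx2 only on the x axis, and no member passed the test of the difference.

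**Figure D5:**
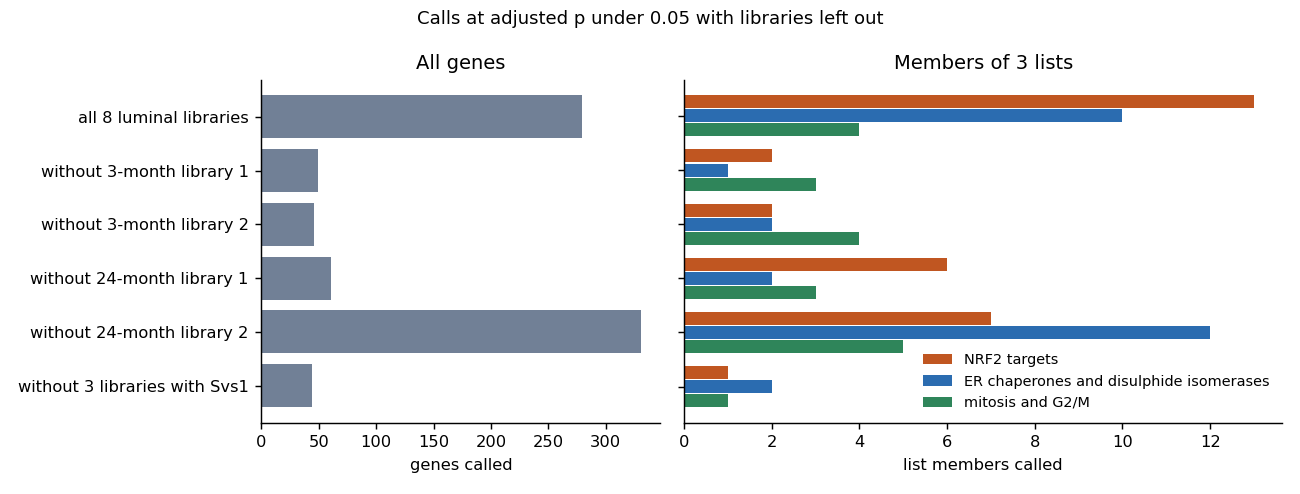
Number of genes called (left, x axis) and of members called in 3 lists (right, x axis) with all 8 luminal libraries and with libraries left out. Over the settings drawn, which leave out Trop2-negative libraries or the 3 libraries high in Svs1, all-gene counts range from 44 to 331; without young library 1 or 2 the NRF2 targets drop from 13 to 2, while mitosis genes range from 1 to 5.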

How the data were processed

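RNA was taken from sorted, frozen cells and made into libraries with a KAPA Stranded mRNA-Seq kit, per the labels' protocols. Per the submitters' processing notes, bcl2fastq 2.17, Bowtie2 2.1.0 and RSEM 1.2.15 were used with build GRCm38. Per the file headers, the authors deposited an RSEM expected count (estimated, so not always whole) and a TPM value for each gene. No source used here states whether counting used strand, and reads of genes that overlap on opposite strands may therefore be mixed.

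Expected counts were rounded and fitted with edgeR 4.0.16 (R 4.3.3; filterByExpr, TMM, robust quasi-likelihood), with 1 mean per group over the 8 luminal libraries, 2-sided, with Benjamini-Hochberg adjustment. An interaction contrast compared the age change of one luminal sort with that of the other. Alternatives used DESeq2 1.42.0, limma 3.58.1 on log2(TPM + 1) and log2(TPM + 0.1), other factors, filters and libraries left out.

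Members and gene lists were chosen with earlier results of these data known. Named by rule were the 4 genes Nqo1, Gstp1, Mki67 and Pdia4, the 12 largest called increases and decreases with at least 5 CPM and no overlap, up to 8 called and 2 uncalled members of lists with at least 3 calls, regulators, genes called for the difference between sorts, and cell type markers. Other genes were named after their values were seen. Intervals and floors cover counting error only. Shared 50-base windows were counted in GENCODE M21 transcripts. Promoters are from RefSeq (GRCm38.p6), matched for 10770 of 13598 genes. A list of proteins with an ER retrieval signal was planned and not used here. 1 gene called for the difference between sorts, and a marker of the sort, are not reported here.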

Additional observations from a re-analysis of the deposited data

Results flagged for a closer look

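For 7 genes the age change differed between the luminal sorts by the test of the difference itself (edgeR, difference of log2 changes, Trop2-negative minus Trop2-positive). In 4 of them the Trop2-negative cells changed. Nrn1 had a difference of 5.83 ± 0.83 (adjusted p = 0.0234), rising from 0.263 to 10.4 CPM in Trop2-negative cells and standing at 10.2 and 6.85 CPM in young and old Trop2-positive cells. Bex1, a small adaptor protein gene, had a difference of 2.40 ± 0.35 (adjusted p = 0.0234), going from 6.09 and 7.95 CPM to 22.5 and 32.2 while the Trop2-positive means were 70.9 and 52.5. Col7a1, the anchoring fibril collagen gene, had a difference of 1.40 ± 0.22 (adjusted p = 0.0397), from 123 and 132 CPM to 243 and 240 against 32.7 and 23.4. Rmnd1 had a fitted difference of -8.46 ± 1.08 (adjusted p = 0.0177); with 0 counts in the old Trop2-negative libraries that size depends on the fit, and the Trop2-positive means were 14.2 and 8.93 CPM.

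In the others the estimated level changed in the Trop2-positive libraries, and 2 of these are described. Cyp4a12a, a fatty acid hydroxylase gene, had a difference of 2.61 ± 0.30 (adjusted p = 0.00507), with 64.2 and 77.7 CPM in young and old Trop2-negative cells and 168 and 33.4 in Trop2-positive cells. Eif3j2, a translation initiation factor gene, had a difference of -4.31 ± 0.27 (adjusted p = 4.5e-06). It shares 91.8% of its 50-base windows with other transcripts, chiefly Eif3j1. As CPM of the library total, Eif3j1 stood at 126.3 and 155.8 and Eif3j2 at 12.8 and 10.4 in the young Trop2-positive libraries. In the old ones Eif3j1 stood at 0.33 and 2.59 and Eif3j2 at 163.4 and 160.1. Their sum stayed between 139.1 and 195.2 in all 8 luminal libraries. The part of read assignment between the 2 genes in this difference was not tested.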

How the results depend on the processing

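The age change called 279 genes, and between 274 and 285 with RLE or upper quartile factors or without the 20 most abundant genes. It called 322 with a mean of at least 5 CPM required, 833 without a filter on low counts, 519 with DESeq2, 508 in a fit of the 4 Trop2-negative libraries, 495 on log2(TPM + 1), 44 on that scale with each library centred on its median gene (an alternative chosen after seeing the data), 44 without the 3 libraries above 100 CPM of Svs1, and 50 for a fold over 1.5. Leaving out 1 library gave 46 to 581, the highest without young Trop2-positive library 1 (581) and 2 (550). The difference between sorts called 7 genes, and 168 without a filter, 68 with DESeq2, 2 on the centred TPM scale, 15 without the libraries high in Svs1, 4 for a fold over 1.5 and 2 to 81 with 1 library left out (81 without young Trop2-positive library 2, 35 without old Trop2-negative library 2). The cause was not tested, except that fits with libraries left out have fewer samples.

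The titles give replicate numbers and name no pairing of libraries. Deviations of same-numbered old and young Trop2-negative libraries correlated at 0.00269 across genes. Over all 6 pairs of luminal groups the correlations ran from -0.149 (old Trop2-negative and old Trop2-positive) to 0.0577. Between the young Trop2-negative and young Trop2-positive libraries the correlation was -0.0588. With 1 replicate difference per group, these values cannot decide whether same-numbered libraries share animals. With the replicate number as a block, 266 genes were called for age, 244 of them shared with the 279, and 7 for the difference between sorts. Of the alternative values of named genes, 1683 kept direction and side of the threshold, 503 lost the call, 58 gained one and 9 turned direction, none of them in a called gene. Keap1 turned to -0.0017 with the 4 libraries alone, -0.010 on the centred TPM scale, -0.058 without the libraries high in Svs1 and -0.042 without young library 2, against 0.0896 without young library 1. Xbp1 turned to 0.20 and 0.21 and Svs2 to 0.22 and 0.22 on log2(TPM + 1) and log2(TPM + 0.1), and Cyp4a12a to -0.025 without young library 1, against 0.643 without young library 2. Depth limits genes under about 0.5 CPM, where 3 counts are the floor.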

Other observations

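Other lists gave few calls in Trop2-negative cells, where 2.05% of all genes were called in either direction. Of 19 circadian clock genes 2 rose with age (median 0.59): Dbp, a clock output factor, from 4.37 and 6.10 CPM to 19.4 and 24.2, and Bhlhe40, a clock repressor, from 224 and 152 to 422 and 402. The hour of collection is not in the labels, so age and time of day cannot be told apart here. Of 16 complement and acute phase genes 2 rose, C3 (2.05 ± 0.244 to 9.40 ± 1.80 CPM) and the ferroxidase gene Cp (6.05 ± 0.716 to 12.3 ± 0.249), the latter lost with other scaling factors. Of 21 glycolysis genes 2 rose, Pfkp and Aldoa (289 ± 10.7 to 443 ± 23.7 CPM).

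Of 23 cholesterol synthesis genes 1 fell, Idi1 (22.5 and 19.6 CPM to 5.14 and 9.51), with a list median of -0.45. Of 29 genes of fatty acid synthesis and oxidation 1 fell, the desaturase gene Scd1 (206 and 181 CPM to 103 and 86.8). Of 20 senescence-associated and secreted inflammatory factors 0 rose and 2 fell, where 1.07% of all genes rose and 0.985% fell. The 2 were the chemokine gene Cxcl2 (4.36 ± 0.638 to 0.524 ± 0.560 CPM) and Igfbp5 (161 and 128 CPM to 36.2 and 12.4). Of 31 immediate early and heat shock genes 3 fell: Hspb1 (348 and 353 CPM to 222 and 227), Dnajb1 (166 and 237 to 126 and 119) and Hspa1b (678 and 1001 to 510 and 417). Hspa1b shares 62.3% of its windows with other transcripts, and its sum with Hspa1a was 1122 and 1896 CPM of the total in the young and 891 and 709 in the old libraries.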
